A study of Drosophila melanogaster with 2 samples.

Results

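The genes described here encode the subunits of the proteasome, and the measurement is where the protein CG32121 lay on their promoters. Members were the protein-coding genes of Ensembl release 115 whose symbols start with Prosalpha, Prosbeta, Rpn or Rpt followed by a digit, which gave 48 of 13945 protein-coding genes on the chromosome arms 2L, 2R, 3L and 3R and on chromosomes 4 and X. The core particle supplied 25 members and the regulatory particle 23. A T or R after the subunit number, with or without a copy number, marked 16 members as testis paralogues (11 core and 5 regulatory), and 32 members carried no such letter. No expression was measured in the files used here, so the testis label rests on the symbols.

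Binding was measured by chromatin immunoprecipitation with sequencing (ChIP-seq) in whole Drosophila melanogaster pupae aged 2 days. All animals were of the strain CG32121-GFP, transgenic flies that make CG32121 fused to eGFP, and the fusion was pulled down with an anti-GFP antibody. The design has 1 group of 2 biological replicates and no comparison between groups, and controls without the tag or the antibody were not analysed here. What drives the fusion gene is unstated, and sex was not recorded. In whole animals, a site bound in a few cell types and a site bound weakly in most cells cannot be told apart.

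The proteasome is the protease complex that degrades proteins tagged with ubiquitin. Its core particle is a barrel of stacked rings, in which alpha subunits form the gated outer rings and beta subunits the inner rings with the active sites. The regulatory particle caps the barrel: a base of Rpt ATPases unfolds the substrate, Rpn subunits of the base bind ubiquitin, and a lid of further Rpn subunits removes the ubiquitin chain. Drosophila has, beside the subunits made in most cells, duplicated genes for several subunits that are known for expression in the male germline.

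A gene is called bound here when a peak summit of the conservative list lay within 500 bp of any of its transcription start sites. That list holds the peaks that passed a limit of 0.01 on the irreproducible discovery rate (IDR), which estimates the share of peaks that do not repeat between replicates. Of the 48 proteasome genes, 8 were bound (16.7%), against 21.5% of all protein-coding genes. The 8 were the lid genes Rpn3, Rpn5, Rpn6 and Rpn12, the base gene Rpn13 and the core genes Prosbeta2, Prosalpha3 and Prosbeta5. Their FlyBase identifiers are FBgn0261396 for Rpn3, FBgn0028690 for Rpn5, FBgn0028689 for Rpn6, FBgn0028693 for Rpn12, FBgn0033886 for Rpn13, FBgn0023174 for Prosbeta2, FBgn0261394 for Prosalpha3 and FBgn0029134 for Prosbeta5. None of the 16 testis paralogues was bound, and 8 of the other 32 members were (25%). The share over all members was below the background. That over the members other than testis paralogues was above it in this list, but the order depended on the setting. It was below the background in each replicate's own list, at 9.38% against 13.1% in replicate 1's and 15.6% against 20.5% in replicate 2's. In the other thresholded list of the series it was below too, at 18.8% against 23.0%. The same held at an IDR of 0.001 or below (9.38% against 12.9%) and, by little, with a window of 1000 bp (25% against 25.5%). It was above with a window of 250 bp (25% against 17.6%) and for canonical starts (21.9% against 18.5%). Above as well were the shares for the nearest gene only (18.8% against 17.3%) and for peaks overlapping a start (21.9% against 14.0%). The test of a gene list was not run, because the members were chosen with earlier results known.

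**Figure D1:**
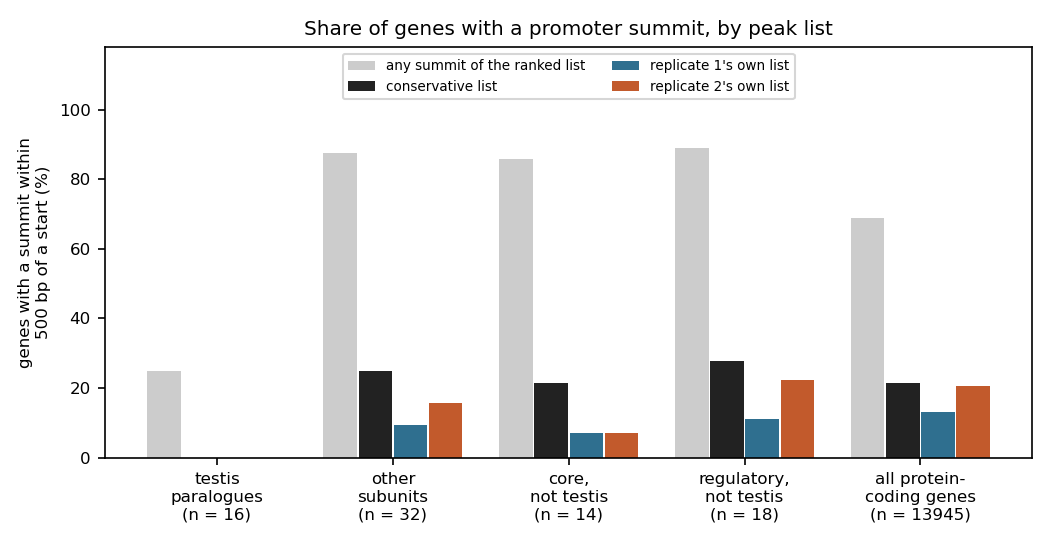
Percentage of genes with a summit within 500 bp of a start (vertical axis), for testis paralogues, the other subunits, the core and regulatory subunits among these, and all protein-coding genes, in 4 peak lists (bars). The testis paralogues have bars only in the ranked list, at 25%, and the other subunits stand at 25% in the conservative list, 9.38% in replicate 1's own list and 15.6% in replicate 2's own list.

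The authors' signal per peak, on an unstated scale, ranks peaks within a list, and sequencing depth is unknown. Signals of each replicate come from that replicate's own ranked list. Rpn3, which encodes a scaffold subunit of the lid, had the strongest peak among the members, with a signal of 276.3 in the series and of 103.9 and 182.2 in replicates 1 and 2. It ranked 1032 of the 7676 peaks on the list, with an IDR of 1e-05, the lowest value the ranked list can hold. The summit lay 2 bp upstream of the start on 2L at 19051788. Prosbeta2, which encodes the subunit with trypsin-like activity, had 136.2 in the series and 50.7 and 84.6 in replicates 1 and 2, with the summit on 3L at 14999830. The lid genes Rpn5 and Rpn12 had weaker peaks. Rpn5 had 87.6 in the series and 30.9 and 59.9 in replicates 1 and 2 (IDR 0.00364), with the summit on 3R at 5789290. Rpn12 had 78.0 in the series and 27.6 and 48.7 in replicates 1 and 2 (IDR 0.00775), with the summit on 3L at 16582961, the highest IDR among the bound members.

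The promoters of these 4 genes are shown with 2 unbound ones, to set summit positions and short sequence elements beside each other. They are the 250 bases before the start and the 50 from it on, in the direction of transcription, from the dm6 assembly. A run of 21 capitals marks the summit with 10 bases on either side, and a run of 8 capitals marks the DNA replication-related element TATCGATA, a site known from promoters of housekeeping and replication genes. The windows are chr2L:19051540-19051839 for Rpn3, chr3L:14999701-15000000 for Prosbeta2, chr3R:5789243-5789542 for Rpn5 and chr3L:16582778-16583077 for Rpn12, all on the plus strand. Rpt5, the ATPase gene with the highest signal among the unbound members (IDR 0.0490, outside the limit), is at chr3R:23752626-23752925 on the plus strand, and Rpn12R, the testis paralogue of Rpn12, at chr3L:15042521-15042820 on the minus strand.
Rpn3: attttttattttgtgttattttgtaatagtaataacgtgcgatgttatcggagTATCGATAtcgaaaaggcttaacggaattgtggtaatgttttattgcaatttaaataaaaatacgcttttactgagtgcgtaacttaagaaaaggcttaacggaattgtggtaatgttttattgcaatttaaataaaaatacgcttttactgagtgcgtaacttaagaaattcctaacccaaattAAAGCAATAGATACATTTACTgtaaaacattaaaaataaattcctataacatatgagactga
Prosbeta2: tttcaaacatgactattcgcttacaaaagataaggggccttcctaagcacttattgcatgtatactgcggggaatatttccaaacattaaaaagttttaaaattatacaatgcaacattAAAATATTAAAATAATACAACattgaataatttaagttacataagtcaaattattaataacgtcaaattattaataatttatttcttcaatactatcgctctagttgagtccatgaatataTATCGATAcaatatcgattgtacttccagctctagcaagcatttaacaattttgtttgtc
Rpn5: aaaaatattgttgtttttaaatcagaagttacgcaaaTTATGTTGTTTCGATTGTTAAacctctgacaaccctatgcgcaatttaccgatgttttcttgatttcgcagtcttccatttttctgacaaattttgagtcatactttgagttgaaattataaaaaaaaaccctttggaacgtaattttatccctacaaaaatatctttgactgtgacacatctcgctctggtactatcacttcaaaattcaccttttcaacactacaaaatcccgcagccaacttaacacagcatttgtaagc
Rpn12: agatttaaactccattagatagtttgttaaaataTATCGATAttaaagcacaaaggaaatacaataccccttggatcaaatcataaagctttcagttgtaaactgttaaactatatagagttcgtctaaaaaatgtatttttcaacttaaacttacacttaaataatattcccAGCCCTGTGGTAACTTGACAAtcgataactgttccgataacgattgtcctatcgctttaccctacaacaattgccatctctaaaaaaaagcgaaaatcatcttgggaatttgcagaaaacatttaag
Rpt5: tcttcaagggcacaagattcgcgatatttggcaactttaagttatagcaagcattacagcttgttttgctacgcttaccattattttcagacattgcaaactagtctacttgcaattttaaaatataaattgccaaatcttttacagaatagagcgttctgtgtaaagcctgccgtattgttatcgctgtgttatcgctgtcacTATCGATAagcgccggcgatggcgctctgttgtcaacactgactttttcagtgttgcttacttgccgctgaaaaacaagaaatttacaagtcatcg
Rpn12R: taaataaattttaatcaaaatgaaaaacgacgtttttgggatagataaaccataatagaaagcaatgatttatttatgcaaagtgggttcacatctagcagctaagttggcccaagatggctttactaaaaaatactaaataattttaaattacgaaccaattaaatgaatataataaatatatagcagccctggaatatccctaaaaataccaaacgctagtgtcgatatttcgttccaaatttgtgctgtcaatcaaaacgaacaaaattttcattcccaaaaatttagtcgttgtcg

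The element stood 197 bp upstream of the start in Rpn3, 10 bp in Prosbeta2, 216 bp in Rpn12 and 46 bp in Rpt5, and the windows of Rpn5 and Rpn12R did not hold these letters. In none of the 3 bound promoters of this set that hold it did it touch the marked bases around the summit. The Rpn3 promoter also holds an exact tandem repeat: 78 bases occur in 2 adjacent copies, from 187 to 32 bp upstream of the start, between the element and the summit. In the other 5 windows the longest exact repeat was between 8 and 16 bases. The 6 windows were AT-rich, with GC contents from 27.0% in Prosbeta2 to 39.3% in Rpt5.

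The remaining 4 bound genes lie on chromosome arm 2R. Rpn13, which encodes a ubiquitin receptor of the base, had a signal of 117.1 in the series and of 41.8 and 77.7 in replicates 1 and 2, with the summit at 13960449 and 45 bp upstream of the start. Prosalpha3, an outer ring gene, had 98.0 in the series and 43.5 and 46.6 in replicates 1 and 2, with the summit at 20994800. Rpn6, a lid gene, had 88.2 in the series and 29.6 and 61.8 in replicates 1 and 2, with the summit at 14752394. Prosbeta5, which encodes the subunit with chymotrypsin-like activity, had 80.0 in the series and 35.0 and 43.4 in replicates 1 and 2, with the summit at 10819874. Replicate 2 was higher at all 8 genes, by ratios from 1.07 at Prosalpha3 to 2.09 at Rpn6 (median 1.76). Over 7322 peaks matched in both replicates it was higher at 96.1%, with a median ratio of 1.72.

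Signals at the members were low for bound promoters. Their median was 93.1, against 138.2 over all bound protein-coding genes and 121.5 over all peaks of the list. Rpn3 and Prosbeta2 were the only members above the median peak, and 75.3% to 84.5% of all peaks were stronger than those of Rpn6, Rpn5, Prosbeta5 and Rpn12. Near the IDR limit, Rpn12 was the last member inside, and Prosbeta6 (IDR 0.0243) and Prosbeta7 (IDR 0.0290), both beta ring genes, were the first outside. Signal and IDR did not order the members alike. Rpt5 had a signal of 78.3 in the series, slightly above Rpn12, but 20.6 and 61.9 in replicates 1 and 2 and an IDR of 0.0490.

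**Figure D2:**
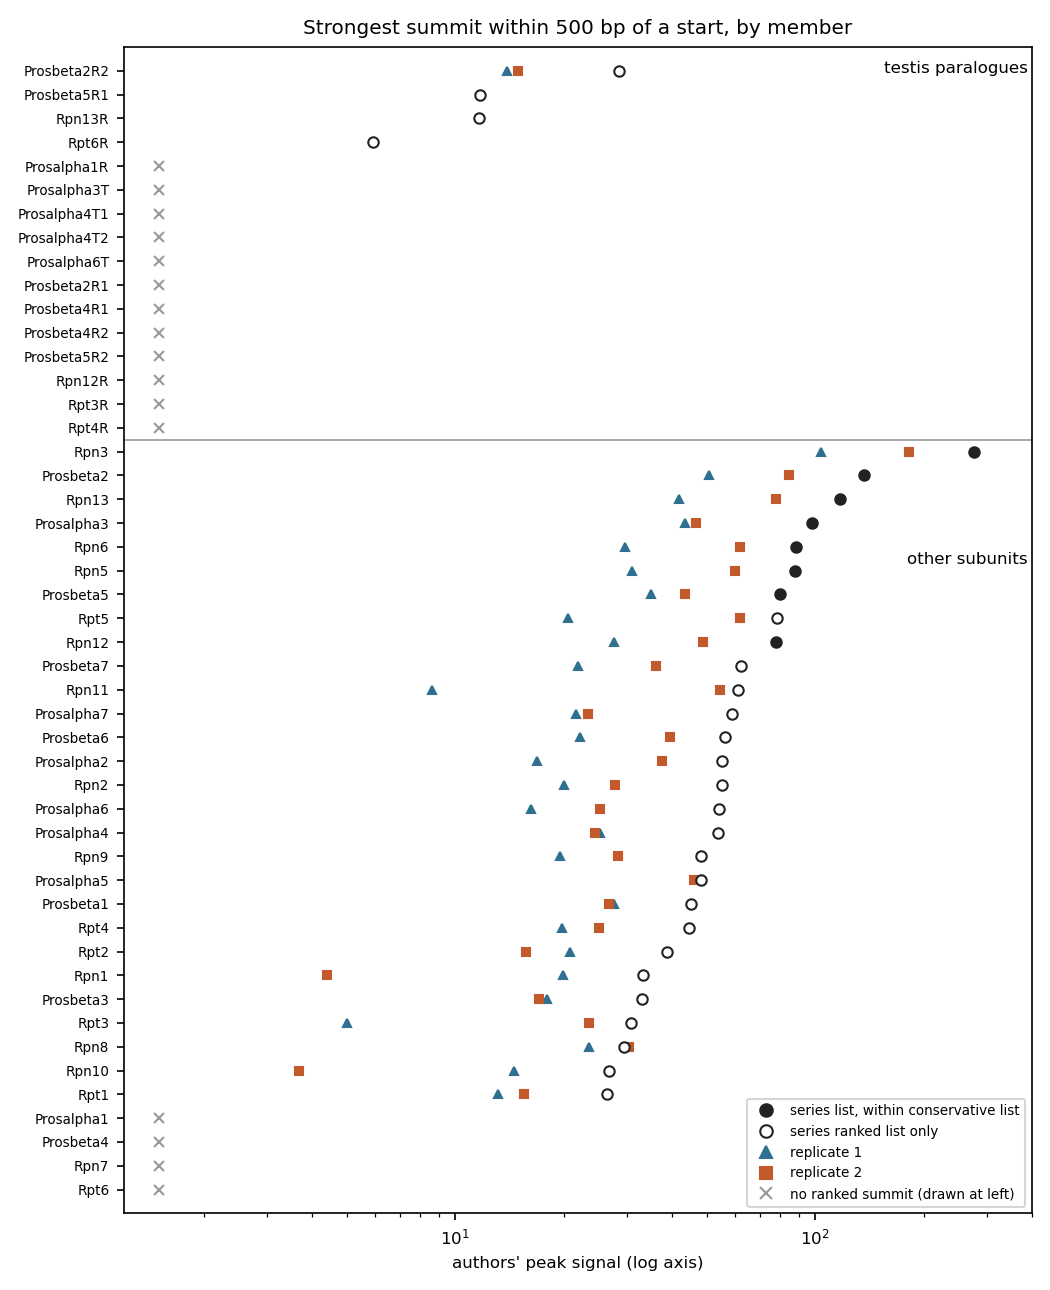
Authors' peak signal (horizontal log axis) of the strongest summit within 500 bp of a start for each of the 48 members (rows), in the series' ranked list (circles, filled where the peak is on the conservative list) and in the nearest summit of each replicate (triangles and squares). The 8 bound members run from 78.0 to 276.3, and 12 of the 16 testis paralogues have no summit at all (crosses).

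Rpn3, Prosbeta2 and Rpn13, the 3 members with an IDR under 0.001, were found by both replicates' own thresholded lists too. Replicate 1's own list held no other member, which made 3 of 48 (6.25%, against 13.1% of all protein-coding genes). Replicate 2's own list held 5 of 48 (10.4%, against 20.5% of all protein-coding genes), with Rpn6 and Rpt5 beside those 3. Prosalpha3, Prosbeta5, Rpn5 and Rpn12 were bound in neither. Prosalpha3, Prosbeta5 and Rpn5 were also missing from the other thresholded list of the series, which held 6 members, Rpt5 among them. In both replicates' own lists the members' share was thus below the background.

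Core and regulatory particle differed by 2 bound genes, a difference that was not tested. With testis paralogues left out, 3 of 14 core genes (21.4%) and 5 of 18 regulatory genes (27.8%) were bound, against the background of 21.5%. With all members counted, it was 3 of 25 core genes (12%) and 5 of 23 regulatory genes (21.7%), and the core holds more of the testis paralogues. Among core genes, 1 of 7 alpha ring genes and 2 of 7 beta ring genes were bound. Prosbeta1, which encodes the remaining active-site subunit (caspase-like), had a candidate summit of 45.2 with an IDR of 0.0776. Within the regulatory particle, as far as the symbol rule takes it in, 4 of 8 lid genes, 1 of 4 non-ATPase genes of the base and 0 of 6 ATPase genes were bound. This finer division follows known structure and was made after the values had been seen. The rule misses subunits with other symbols, and Sem1, held in the list of other genes below, was not bound. Of the lid genes, 1 of 8 was bound in replicate 1's own list and 2 of 8 in replicate 2's own list. In the list of replicate 2, 1 of 6 ATPase genes, Rpt5, was bound. Rpt5 was also bound in the other thresholded list of the series. Rpn11, the deubiquitinase of the lid, had a candidate of 61.0 that was uneven between replicates, at 8.61 and 54.5 in replicates 1 and 2. At an IDR of 0.001 or below 1 core gene and 2 regulatory genes were bound, and the share of all protein-coding genes was 12.9% in place of 21.5%.

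All 8 summits lay upstream of the nearest start of their gene, between 2 and 203 bp from it, with a median position of -102 bp. For Rpn6 that is the inner of its 2 starts, and the summit lies downstream of the outer one. Rpn6 was not bound when canonical starts alone were used. Over all bound protein-coding genes 76.2% of the strongest promoter summits lay upstream, with a median of -115 bp. The member just inside the 500 bp window was Rpn5 at 203 bp, and the nearest one outside it was Prosbeta6, with the closest summit at 1082 bp. No member had a summit elsewhere in its body or in the 1 kb upstream. By annotation the summits of Rpn3, Prosbeta2, Rpn13, Prosalpha3 and Rpn12 were intergenic, that of Rpn6 was in an intron of Rpn6 itself, which has 2 starts, that of Rpn5 in an intron of Hat1, and that of Prosbeta5 in the 5' UTR of dgo.

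At 7 of the 8 genes another gene, protein-coding or not, had a start within 500 bp of the same summit, on the opposite strand. The share of all bound genes with such a neighbour was not counted, so this describes the 8 only. The neighbours were l(2)37Bb at Rpn3, mRpL39 (a mitochondrial ribosomal protein gene) at Prosbeta2, CtsL1 (a cathepsin gene) at Rpn13, dgt3 (a spindle augmin gene) at Prosalpha3, ave (an adaptor gene of receptor tyrosine kinase signalling) at Rpn6, Hat1 (a histone acetyltransferase gene) at Rpn5 and dgo (a planar polarity gene) at Prosbeta5. The neighbour was nearer to the summit than the proteasome gene at Prosbeta5, where the start of dgo lay 10 bp away against 104 bp, and at Rpn5, where that of Hat1 lay 94 bp away against 203 bp. At Rpn6 the distances were 123 bp, and 127 bp for ave. Rpn12 alone had its peak to itself. Which gene of such a pair a peak serves cannot be told from these files.

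**Figure D3:**
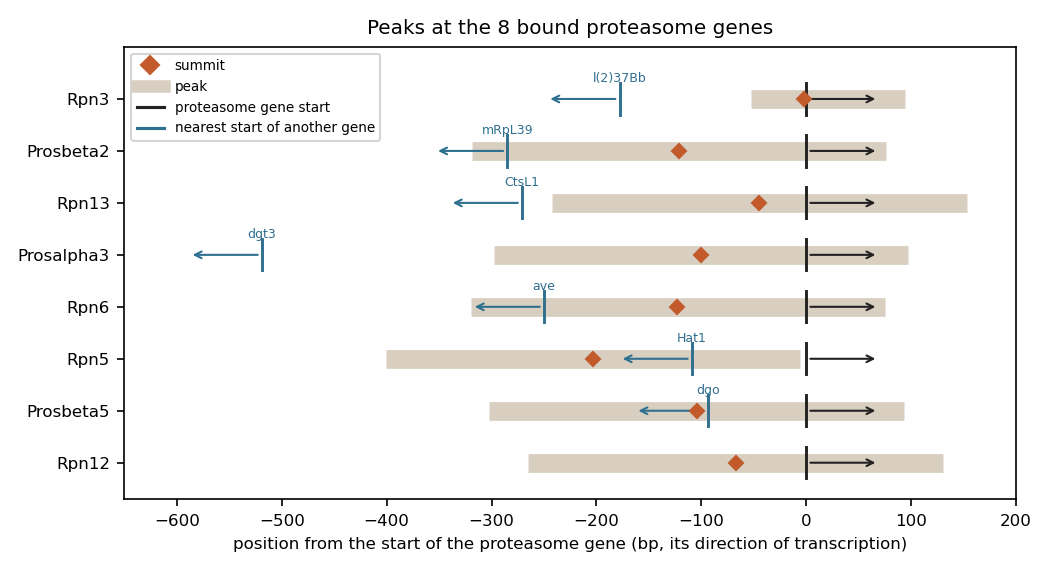
Position of each peak (band) and its summit (diamond) at the 8 bound members, in bp from the nearest start of the proteasome gene (black) in its direction of transcription, with the nearest start of another gene (blue). All summits lie between -203 and -2 bp, and at Rpn5 and Prosbeta5 the start of the neighbour is nearer.

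Head-to-head promoters, where another protein-coding gene starts on the opposite strand at most 500 bp upstream, were found at 3 of 16 testis paralogues (18.8%), 21 of the other 32 members (65.6%) and 27.4% of all protein-coding genes. Genes of this kind were bound more often genome-wide: 34.2% of 3815 head-to-head genes and 16.7% of 10130 other genes. Among members other than testis paralogues 6 of 21 head-to-head genes (28.6%) and 2 of 11 lone genes (18.2%) were bound. In replicate 1's own list these were 3 of 21 (14.3%, against 21.7% of all head-to-head genes) and 0 of 11 (against 9.83% of all lone genes), and in replicate 2's own list 5 of 21 (23.8%, against 33.3%) and 0 of 11 (against 15.7%). The 2 lone genes bound in the conservative list were Rpn12 and Prosalpha3. At Prosalpha3 the neighbour dgt3 starts at -519 bp, just beyond the limit of 500 bp, so its place among lone genes depends on that limit. Number of starts is another opportunity for a peak. Of the members other than testis paralogues with a single start 5 of 22 were bound (22.7%), against 15.3% of all single-start genes. In replicate 1's own list it was 1 of 22 (4.55%, against 8.83%) and in replicate 2's own list 2 of 22 (9.09%, against 14.7%), so the order turned in both.

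The testis paralogues differed from the other subunits below the IDR limit as well. The series' ranked list, which keeps candidate peaks of any IDR, had a summit within 500 bp of 4 of 16 testis paralogues (25%), 28 of the other 32 members (87.5%) and 68.8% of all protein-coding genes. The 4 were Prosbeta2R2 with a signal of 28.5 (IDR 0.351), Prosbeta5R1 with 11.7, Rpn13R with 11.7 and Rpt6R with 5.89, and the last 3 had the IDR of 0.760 and no summit of either replicate within 200 bp. Of the 24 unbound members other than testis paralogues, 20 had a candidate, with signals from 26.3 at Rpt1 to 78.3 at Rpt5 and a median of 48.2. The IDR was under 0.1 for 0 of the 4 testis paralogues with a candidate and for 8 of these 20. Prosbeta2R2 exceeded Rpt1 and Rpn10 (26.7) among these 20, and the other 3 testis paralogues exceeded none of them.

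The candidates of the unbound subunits can be read by role. Over all protein-coding genes with a summit of the ranked list, bound ones included, the median of the strongest signal was 51.3. In the alpha ring the candidates were 58.6 at Prosalpha7, 55.2 at Prosalpha2, 54.0 at Prosalpha6, 53.6 at Prosalpha4 and 48.2 at Prosalpha5. In the beta ring they were 62.0 at Prosbeta7, 56.0 at Prosbeta6, 45.2 at Prosbeta1 and 33.1 at Prosbeta3. The ATPase genes had 78.3 at Rpt5, 44.6 at Rpt4, 38.8 at Rpt2, 30.8 at Rpt3 and 26.3 at Rpt1. Among non-ATPase genes of the base Rpn2, a scaffold gene, had 55.0, Rpn1, the other scaffold gene, 33.2 and Rpn10, a ubiquitin receptor gene, 26.7. The remaining lid genes had 61.0 at Rpn11, 48.3 at Rpn9 and 29.4 at Rpn8. Several of these candidates were poorly reproduced. The highest IDRs were 0.760 at Rpn1 and Rpn10, 0.579 at Rpn11, 0.564 at Rpt3 and 0.545 at Prosalpha5. Replicates 1 and 2 gave 19.9 and 4.39 at Rpn1 and 14.6 and 3.67 at Rpn10. Prosalpha5 had no summit of replicate 1 within 200 bp. Prosalpha1, Prosbeta4, Rpn7 and Rpt6 had no candidate.

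The 16 testis paralogues belong to 12 subunits. Where the other gene of the subunit was bound, Rpn12R had no candidate against 78.0 at Rpn12, Rpn13R had 11.7 against 117.1 at Rpn13, and Prosalpha3T had none against 98.0 at Prosalpha3. Prosbeta2R1 had none and Prosbeta2R2 28.5, against 136.2 at Prosbeta2. Prosbeta5R1 had 11.7 and Prosbeta5R2 none, against 80.0 at Prosbeta5. Where it had a candidate outside the limit, the testis paralogues had none: Prosalpha4T1 and Prosalpha4T2 against 53.6 at Prosalpha4, Prosalpha6T against 54.0 at Prosalpha6, Rpt3R against 30.8 at Rpt3 and Rpt4R against 44.6 at Rpt4. The remaining 3 subunits did not show this order. Rpt6R had a candidate of 5.89 and Rpt6 none, and neither the testis paralogues nor the other gene had one for Prosalpha1 and Prosbeta4.

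The nearest summit of the conservative list was also farther away. It lay at a median of 18751 bp from testis paralogues (3383 bp at Prosbeta2R2 to 70001 bp at Prosbeta4R2), 3287 bp from the other subunits (2 to 12708 bp) and 5361 bp from all protein-coding genes. Prosbeta4R1, which lies near Prosbeta4R2 on 2L, was 67653 bp from the same summit, so their distances are not independent. The ranges overlapped, with 11 of 16 testis paralogues farther away than any other subunit. Presence of a head-to-head neighbour moved with this contrast, as given above. So did the number of starts. A single start was found at 14 of 16 testis paralogues (87.5%), 68.8% of the other subunits and 73.5% of all protein-coding genes. All single-start genes were bound at 15.3% and all lone genes at 16.7%, both below the 21.5% of all protein-coding genes. The part of either in the lack of bound testis paralogues was not tested.

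**Figure D4:**
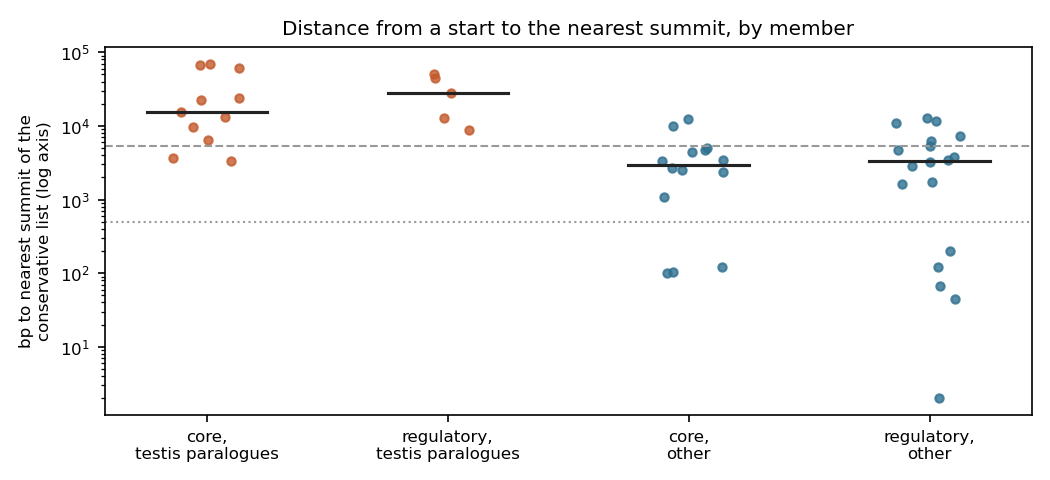
Distance in bp (vertical log axis) from the start of each member to the nearest summit of the conservative list, by particle and by testis label, with group medians (bars), the 500 bp window (dotted line) and the median of all protein-coding genes, 5361 bp (dashed line). The 16 testis paralogues lie at 3383 bp or more, and the other subunits reach down to 2 bp at Rpn3.

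For one pair the lack of a peak says little. Prosalpha1 and Prosalpha1R, an alpha ring gene and its paralogue on 2R, had no candidate peak. In the 250 bp on either side of their starts, 452 of 452 words of 50 bases occurred more than once in the genome, so that reads from them may have no unique place, and how such reads were treated is unstated. Of the other members only Rpn3, whose promoter holds the tandem repeat given above, had such words, 66 of 452. The same limit holds for reads from them. The peak of Rpn3 was 148 bp wide, and those of the other bound members were 396 bp wide. Whether the repeat bears on its width or signal was not tested. Without the pair 0 of 15 testis paralogues and 8 of 31 other members (25.8%) were bound.

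A set of 7 short sequence elements were searched in all promoters on both strands, in the window shown above. The DNA replication-related element TATCGATA was present in 1 of 16 testis paralogue promoters (6.25%, Rpt3R), 11 of 32 promoters of the other subunits (34.4%) and 8.94% of all protein-coding gene promoters. The 11 were those of Prosalpha3, Prosalpha5, Prosalpha6, Prosbeta1, Prosbeta2, Prosbeta6, Rpn3, Rpn7, Rpn9, Rpn12 and Rpt5, which made 6 of 14 core and 5 of 18 regulatory genes. It was held by 4 of the 8 bound members and 7 of the 24 unbound ones other than testis paralogues. Among all bound protein-coding genes it stood in 11.6%, and in 16.8% of all head-to-head and 5.98% of all other promoters. Members other than testis paralogues held it in 7 of 21 head-to-head promoters and in 4 of 11 lone ones. Within 50 bp of the summit it occurred at 1 of the 8 bound members and at 0.638% of all peaks. All peaks include those away from promoters, so that share is no like background. The share over promoter peaks alone was not counted.

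The motif 1 core GGTCACAC, a core promoter element of broadly expressed genes, was in 0 of 16 testis paralogue promoters, 6 of 32 promoters of the other subunits (18.8%) and 7.54% of all promoters. The 6 were Prosalpha2, Prosalpha4, Prosbeta3, Rpn1, Rpn7 and Rpn8. It was in 0 of 8 bound members and 9.99% of all bound protein-coding genes, a share at which a count of 0 in 8 says little. The core of the antioxidant response element, TGACNNNGC, which factors of the Nrf family read and which is known from proteasome gene control in mammals, was in 1 of 16, 5 of 32 (15.6%) and 8.48% of the same sets. The 5 were Prosalpha2, Prosbeta3, Rpn1, Rpn7 and Rpt6. It was in 0 of 8 bound members and 8.52% of all bound protein-coding genes, and the same limit holds. The TATA box sequence TATAAA was in 5 of 16 (31.2%), 13 of 32 (40.6%) and 45.3%. The E-box CAGCTG was in 0 of 16, 2 of 32 (6.25%) and 17.9%, the GAGA element GAGAGAG in 2 of 16 (12.5%), 0 of 32 and 6.20%, and the hexamer ACAGTG in 1 of 16 (6.25%), 5 of 32 (15.6%) and 13.9%. These matches describe the letters of the windows and were not tested. The median GC content of the promoters was 32.5% for testis paralogues, 33.5% for the other subunits and 38.0% for all genes.

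**Figure D5:**
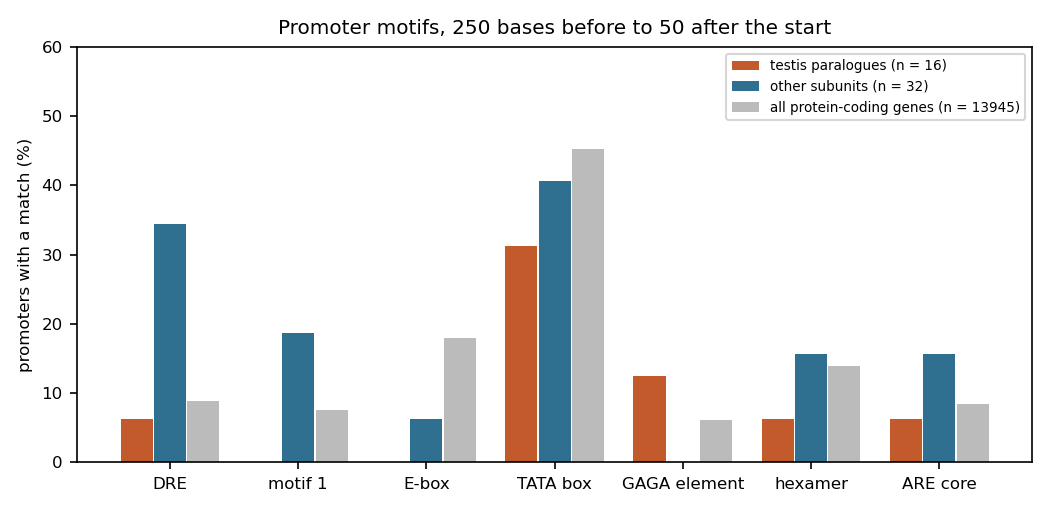
Percentage of promoters, from 250 bases before to 50 after the start, with a match on either strand to each of 7 elements (groups of bars), for 16 testis paralogues, the 32 other subunits and all 13945 protein-coding genes. DRE is the DNA replication-related element, at 6.25%, 34.4% and 8.94%, and ARE the antioxidant response element.

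Genes that work with the proteasome were described from a list of 30 symbols, of which 28 had a gene, and from the 9 genes of the COP9 signalosome, a complex related to the lid. Of the 28, 10 were bound (35.7%, against the 21.5% of all protein-coding genes), with a median signal of 108.7. The 28 had more starts, with a mean of 1.96 against 1.41 over all protein-coding genes. Head-to-head promoters were also more common, at 42.9% against 27.4%. The part of either in the share bound was not tested. Pomp, the assembly chaperone of the core, had 184.4 in the series and 88.7 in each replicate. The regulator gene cnc, the fly member of the Nrf family, had 180.4 in the series and 72.7 and 125.7 in replicates 1 and 2, and has 10 starts. Keap1, its inhibitor, had 73.3, and Pngl, the fly N-glycanase gene, had 92.2. Ufd1 and Npl4, cofactors of the TER94 segregase, had 157.6 and 103.2. Bound as well were Ubr1 (221.3), a ubiquitin ligase gene, RpS27A (114.2), which encodes a ubiquitin fusion, Ubqn (99.7), a shuttle factor gene, and ntc (93.2), an F-box gene. With a window of 250 bp 6 of the 28 were bound (21.4%, against 17.6% of all genes). It was also 6 in replicate 1's own list (against 13.1%) and for peaks that overlap a start (against 14.0%), and 5 (17.9%, against 12.9%) at an IDR of 0.001 or below. Replicate 2's own list gave 8 (28.6%, against 20.5%), canonical starts 9 (32.1%, against 18.5%) and the nearest gene only 10 (35.7%, against 17.3%). The other thresholded list gave 12 (42.9%, against 23.0%) and a window of 1000 bp 13 (46.4%, against 25.5%). None of these differences was tested. Of the 9 signalosome genes 3 were bound (33.3%): alien (CSN2) at 280.8, CSN5 at 76.7 and CSN8 at 67.7. In each replicate's own list 1 of 9 was bound (11.1%), below the 13.1% of all genes in replicate 1's and the 20.5% in replicate 2's. It was also 1 of 9 at an IDR of 0.001 or below and with a window of 250 bp, and 0 of 9 when a summit was given to its nearest gene only or a peak had to overlap a start.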

How the data were processed

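ChIP-seq of 2 biological replicates was deposited as peak lists in dm6. The peak signal and the −log10 of the global IDR are values the authors deposited. Per the notes deposited with the samples, the thresholded lists also used an input of undescribed content. The sources used here name neither aligner nor peak caller, and read depth is unknown. Starts came from Ensembl release 115 and sequence from the RefSeq copy of the same assembly, in which 48 of 48 members had ATG at their annotated coding start. Each replicate's signal came from its ranked list, at the closest summit no more than 200 bp away. The ranked list of the series held 172 peaks within the IDR limit that were not on the conservative list, and 0 members lay beside them. By rule the text names every member, the head-to-head neighbours at member peaks and the bound genes of the other lists. No test was run: counts are set beside those of all protein-coding genes. The members, lists and elements were chosen with earlier results of these data known. Window assignment was tested on simulated summits. Python 3.11.15 with pandas 2.3.3 was used. Alternatives were the other thresholded list, an IDR limit of 0.001, windows of 250 and 1000 bp, canonical starts, the nearest gene only, peaks overlapping a start, and each replicate's own list.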

Additional observations from a re-analysis of the deposited data

How the results depend on the processing

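Of 8 bound members, 3 were left at an IDR of 0.001 or below, with 1 core gene, 2 regulatory genes and 3 genes other than testis paralogues. That was 6.25% of members, against 12.9% of all genes. The other thresholded list of the series left 1 core gene. With 1 replicate's own list in place of the series list, the lowest and highest counts were 3 and 5 for all members, 3 and 5 for those other than testis paralogues, 1 and 1 for core and 2 and 4 for regulatory genes. All genes stood at 13.1% and 20.5% in these lists, against 21.5% in the series list. The cause of single losses was not tested. Counts stayed within 1.5 times under the other alternatives, but the share of all genes moved too. It was 16.7% of members against 17.6% of all genes with a window of 250 bp and against 25.5% with 1000 bp (8 members in each), 14.6% against 18.5% for canonical starts (7), 12.5% against 17.3% for the nearest gene only (6) and 12.5% against 23.0% in the other thresholded list (6). For peaks overlapping a start it was 14.6% against 14.0% (7), the one of these settings in which the members' share was not below that of all genes. No testis paralogue was bound under any of the 9 alternatives. Their nearest summit of the conservative list lay at 3383 bp or more. The 2 windows, the stricter IDR limit, canonical starts and the nearest gene could therefore give no other count. Peaks overlapping a start came from the same list, and a peak would have to reach at least 3383 bp from its summit to change it. Only the other thresholded list and the replicates' own lists drew on other peaks. Rpn3, Prosbeta2 and Rpn13 were bound in 9 of 9, Rpn6 and Rpn12 in 6, Prosalpha3 in 5, Prosbeta5 in 4 and Rpn5 in 3. Rpt5, which was not on the conservative list, was bound in 2 of 9. Leaving out Prosalpha1 and Prosalpha1R was added after the data were seen. No paired analysis was possible because there is 1 group. Unknown depth limits what the absence of a peak can show.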
